A study of Mus musculus and synthetic construct with 21 samples.

Results

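A set of 59 designed DNA elements is described here, at which PPARγ occupancy was lower once a short motif was altered, while reporter activity was nearly equal in both forms. They were picked from 750 sites of class "w" in the first of 7 pools of elements, each made in a native form (wt) and a form with the motif altered (wd). The class letters are not spelled out in the element names, and "wt" and "wd" are read here as native and altered. Both forms of 541 of the 750 sites were present in the ChIP table. At 248 of these 541 (45.8%) the native form exceeded the altered form by at least 0.5 on the log2 scale of ChIP over input, and this was the first criterion. The second was a native minus altered activity between -0.5 and 0.25 on the log2 scale of RNA over plasmid, which left the 59 selected sites. The 113 sites with the same minimum loss of binding and an activity loss of at least 0.75 serve as the comparison sites. Of the other sites with a binding loss, 72 lay between 0.25 and 0.75 and 4 lay below -0.5. Because measured binding and activity chose both sets, those 2 measures are given for them as descriptions, without a test.

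The elements were transfected as plasmids into 3T3-L1, a mouse pre-adipocyte line that turns into fat cells in culture. For adipogenic induction the medium held dexamethasone at 1 µM, insulin at 1.7 µM and IBMX, a phosphodiesterase inhibitor, at 0.5 mM. Cells were collected for RNA and for ChIP at 16 h from transfection. Each kind of library was made once, so no value below carries an error between cultures, and p-values compare barcodes within 1 pair of libraries. The pool 1 libraries held 34801803 RNA counts, 48330091 plasmid counts, 1987761 ChIP counts and 1381624 input counts.

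PPARγ is the nuclear receptor that drives fat cell differentiation, and it binds DNA as a dimer with RXR. The dimer recognises the DR1 motif, a direct repeat of the half-site AGGTCA with 1 base between the copies, usually with a short A-rich stretch before it. In a massively parallel reporter assay each element drives a transcript that carries barcodes unique to the element. The RNA count of a barcode over its plasmid count then measures enhancer activity, and ChIP on the same plasmids measures occupancy. Activity here is the median over up to 9 barcodes of an element. A level of 0 on either scale is the average of the library, so a negative value means below that average and not absence.

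The element names carry the 16 bases of the native motif with its mm9 position. Those of the selected sites with a large binding difference are shown with capitals marking both half-sites of the closest DR1 match. Lower case marks the bases in front of it and the single base between the half-sites.
Site 402: agtAGGTCAaAGTTCA
Site 20: actAGGGCAaAGTTCA
Site 641: agtAAGGCAaAGGTCA
Site 601: agtGGGGGAaAGGTCA
Site 216: actGGGACAgAGGTCA
Site 513: tgtGGGACAaAGGTCA
Site 136: tatAGGTGAaAGGTGA
Site 269: aggGAGGAAaGGGTCA
They lie at chr2:151566408-151566423 (site 402, plus strand), chr4:86336173-86336188 (site 20, plus strand) and chr4:138527491-138527506 (site 641, minus strand). Site 601 lies at chr15:89026335-89026350 on the plus strand and site 216 at chr1:122016998-122017013 on the minus strand. Sites 513, 136 and 269 are on the minus strand at chr5:114596172-114596187, chr3:121517399-121517414 and chr9:23067380-23067395. No annotation of mm9 was used, so the sites are not assigned to genes. The altered letters are not part of the names and are not shown.

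The selected sites ran from 0 to 6 mismatches to the DR1 consensus, in which the base between the half-sites was taken as A. A different base there counts as a mismatch. The closest matches and 3 of the 5 most distant ones are shown because of this range.
Site 450: tggAGGTCAaAGGTCA
Site 501: tccAGGACAaAGGTCA
Site 110: tgaAGGCCAaAGGTCA
Site 692: agtGGGTCAgAGAGTC
Site 34: tctGTGGCAaAGGGGC
Site 164: tctGGGGGAgAGGGGA
Site 450 (chr5:112670341-112670356, minus strand) holds both half-sites without a mismatch. Site 501 (chr4:144547850-144547865, plus strand), site 110 (chr10:78037399-78037414, plus strand) and site 402 above have 1 mismatch each. Sites 692, 34 and 164, at chr13:103724020-103724035, chr6:58901721-58901736 and chr7:26175476-26175491, have 6 mismatches each over the 13 bases, as do sites 333 and 723, which are not shown.

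The comparison sites carried motifs of the same kind. Of those with the largest binding differences, 4 are shown.
Site 403: agtGGGTGAaGGGTCA
Site 390: tctGGGGGAaAGGTCA
Site 4: accAGGTGAaAGGTTA
Site 683: tgtAGGTAAaAGGTCC
They lie on the plus strand at chr7:107610206-107610221, chr2:178228865-178228880, chr3:96359334-96359349 and chr4:15871968-15871983. The native minus altered binding was 3.89 at site 403, 3.46 at site 390, 2.69 at site 4 and 2.67 at site 683. Their activity differences were 1.16, 1.13, 2.73 and 0.98 in the same order. Site 457, with no sequence shown, had 2.85 in binding and 1.02 in activity. Site 390 and the selected site 601 share all 13 bases of the DR1 match, with 3 mismatches each, all in the first half-site. Within the 16 bases of the names they differ only in front of that match. They lie at different genomic positions and therefore also have other surrounding sequence.

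In binding, the selected sites resembled the comparison sites. Both sets were cut at the same minimum binding difference, so this likeness is partly set by the selection. The native minus altered difference ranged from 0.52 to 3.78 over the 59 sites, with a median of 1.06, against a median of 0.99 in the comparison sites and 0.44 over all 541. It was at least 1 at 32 of 59 selected sites, 55 of 113 comparison sites and 130 of all 541. Native forms had a median log2 ChIP over input of 0.65 and altered forms of -0.23, against 0.88 and -0.24 in the comparison sites. Native binding was above 1 in 25 of 59 selected and 46 of 113 comparison sites, against 107 of all 541. In 8 selected sites (10 comparison sites) the native form was itself below the library average, and there the difference rests on a still lower altered form. Over all 541, native binding was below that average at 194.

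The counts that chose the sites also set the precision of their binding values. The 95% counting interval of the difference lay above 0 at all 59 selected and 113 comparison sites and at 334 of all 541. It lay above 0.5 at 48 of 59, 81 of 113 and 187 of 541. The selection on these same counts largely fixes the shares of both chosen sets, so nothing is read from them. The median input count of the native form was 299 in the selected sites, 412 in the comparison sites and 450 over all 541. At least 1 of the 4 ChIP and input counts was under 200 at 42.4% of the selected sites, at 31.0% of the comparison sites and at 26.6% of all 541. The part of this lower depth in the selection was not tested. The opposite direction, an altered form bound more by at least 0.5, occurred at 45 of 541 sites, or 8.32%, and by at least 1 at 4 sites.

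The selection requires that the sets differ in activity difference, and the median levels differed more in the native than in the altered forms. The median native activity was -0.37 in the selected sites, 1.25 in the comparison sites and 0.11 over all 541. The altered forms had a median of -0.40 in the selected sites, -0.37 in the comparison sites and -0.43 over all 541. Native activity was above 0 in 4 of 59 selected and 109 of 113 comparison sites, against 297 of all 541. Altered activity was above 0 in 6 of 59 and 32 of 113, against 102 of all 541. The mean altered activity was -0.37 in the selected sites, -0.18 in the comparison sites and -0.27 over all 541. The highest native level among the selected sites was 0.72, at site 216, and the lowest -0.87, at site 450, the perfect DR1. No selected site had both forms above 0.5, against 16 of 113 comparison sites and 43 of all 541 (7.95%). The selection limits the difference between forms and not the level, so a site active in both forms could have entered. Both levels are parts of the difference that chose the sets, however, so nothing is read from these counts. Site 216, with 0.48 in its altered form, lay just under the level of 0.5.

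Site 402 had the most ChIP reads of the selected sites. Its native form had 11820 ChIP reads over 2084 input reads and its altered form 1522 over 2040. Log2 binding was 1.98 native and -0.95 altered, a difference of 2.93 with a 95% counting interval from 2.81 to 3.04. Activity over 9 native barcodes ranged from -0.99 to 0.94 with a median of -0.31. The 9 altered barcodes ranged from -0.59 to 0.05 with a median of -0.38. The barcode ranges overlapped, and the medians differed by 0.07.

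Site 20 showed the same pattern at lower depth. The ChIP over input counts were 1293 over 132 in the native form and 153 over 112 in the altered form. Binding was 2.76 and -0.08, a difference of 2.84 (95% counting interval 2.40 to 3.27). The median activity was -0.28 over 7 native barcodes and -0.46 over 9 altered barcodes. Site 641 had 2077 over 206 reads native and 219 over 129 altered, with binding of 2.80 and 0.23. Both its forms were among the less active, at -0.60 and -0.78. Site 513 had binding of 1.69 native and -0.16 altered on 4360 over 938 and 486 over 378 reads, and its activity was -0.02 native and -0.24 altered.

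In other sites the altered form kept binding above the library average. Site 601 had the highest native binding of the set, 3.24 (2430 over 178 reads), and its altered form still stood at 0.69 (411 over 176). Its activity was -0.76 over 6 native barcodes and -0.37 over 8 altered barcodes. Site 136 had 2.48 native (3963 over 493) and 0.63 altered (1136 over 511), with activity at -0.64 and -0.78. The altered form was above 0 in binding in 20 of 59 selected and 40 of 113 comparison sites, against 217 of all 541. These shares were 33.9%, 35.4% and 40.1%. The minimum binding difference favours a low altered form in both chosen sets, so nothing is read from their lower shares.

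At site 269 the difference had another make-up. The native form was near the library average, at 0.10 (329 over 213 reads), and the altered form far below it, at -2.62 (68 over 294). Site 696 (chrX:12619049-12619064) was similar, with 362 over 162 reads native and only 48 over 112 altered, or 0.63 and -1.73. Site 500, with the largest difference of the set (3.78), combined a high native form, 2.26 on 3257 over 471 reads, with a low altered form, -1.51 on 335 over 666. Its activity was -0.50 native and -0.46 altered.

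The perfect DR1 of site 450 was bound above the library average, with activity below it. It had 6397 over 1149 reads native and 480 over 287 altered, so binding was 1.95 and 0.22, and the activity of -0.87 native and -0.71 altered was low in both forms. The near-perfect site 110 was not enriched in either form, at -0.53 (1688 over 1695) and -1.22 (774 over 1255). Site 501 lay between, at 0.35 (201 over 109) and -0.62 (196 over 210), with activity of -0.35 and -0.23. Among the 5 selected sites with 6 mismatches, the native binding was -0.20 at site 692, -0.02 at site 34, 0.39 at site 164, 0.67 at site 723 (495 over 216) and 1.60 at site 333 (2178 over 497). Native binding thus ran from -0.53 to 1.98 with 0 or 1 mismatches and from -0.20 to 1.60 with 6, and these ranges overlap.

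How closely an activity difference near 0 is bounded depends on the barcodes. The standard error of the difference between mean barcode activities had a median of 0.33 over the 59 sites. At 35 of 59, the difference plus 2 standard errors stayed under 0.75, the loss that defines the comparison sites, and at the other 24 it did not. The same held at 0 of 113 comparison sites and at 135 of all 541, and the measure is the one that chose the sets. With the odd-numbered barcode columns alone, 29 of the 59 still met both criteria, and with the even-numbered columns 34 did. Their activity differences then ran from -0.86 to 1.36 and from -1.20 to 0.94. Of the 113 comparison sites, 95 and 102 met their criteria in the same splits. By a 2-sided permutation test over barcodes, with Benjamini-Hochberg adjustment over the 743 w sites that could be tested, the native form was higher at 0 of 59 selected and 91 of 113 comparison sites, against 31.9% of all. That test reads the activity that chose the sets, so nothing follows from these counts. Both stricter criteria, a counting interval above 0.5 and the activity bound under 0.75, were met by 27 sites.

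The thresholds cut through a continuous range. Just inside the binding limit lay sites 723, 565 and 306, at 0.52, 0.56 and 0.58, and just outside lay sites 210, 429 and 357, at 0.50, 0.48 and 0.48. At the upper activity limit, sites 160, 168 and 389 were inside at 0.25, 0.25 and 0.24, and sites 446, 74 and 270 outside at 0.25, 0.26 and 0.28. The lowest activity differences inside were -0.39, -0.37 and -0.35, at sites 601, 654 and 696. Those outside were -0.72, -1.01 and -1.29, at sites 452, 292 and 485. On the comparison side, sites 106, 504 and 260 were just inside at 0.75, 0.75 and 0.75, and sites 397, 177 and 677 just outside at 0.75, 0.74 and 0.74.

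The pool holds a measurement that the selection did not use. Each of the 750 numbers also has a "c" element pair, with the same 16 bases at another genomic position and therefore with other surrounding sequence. For the selected sites, these c elements gave the motif a different setting. The native c form was more active than the altered form at 38 of 59, against 76 of 113 for the comparison sites and 321 of 541 for all w sites with binding. The median motif effect on activity was 0.16, 0.13 and 0.08. The motifs of the 2 sets, chosen to differ in activity effect at their w positions, thus had nearly equal medians at their c positions.

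The binding difference was also measured in the c setting where the ChIP table held both forms. The native c form exceeded the altered form by at least 0.5 at 17 of 33 counterparts of selected sites and at 30 of 60 counterparts of comparison sites. Over all 404 c sites the share was 36.6%. The median difference was 0.58 in the first set, 0.51 in the second and 0.25 over the 293 c sites whose w site also had binding. It ran from -3.02, at site 547, to 3.07, at site 51. The altered form was higher by at least 0.5 at 2 of 33, at 5 of 60 and at 55 of all 404.

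At single c sites, the permutation test over barcodes called the native form higher at 2 of 59 counterparts of selected sites, numbers 20 and 147, and at 4 of 113 of comparison sites. The share over all 749 c sites was 1.34%. At an unadjusted p under 0.05 in either direction, the counts were 12 of 59 and 14 of 113, against 9.48% of the 749. One of the 12, number 487, had the altered c form higher. The altered form was called higher at none of the 59 after Benjamini-Hochberg adjustment. The c counterpart of site 20 (chr4:101734902-101734917) had 2287 ChIP reads over 780 input reads native and 1220 over 937 altered, or 1.03 and -0.14 in binding. Its median activity was 0.36 native and -0.54 altered over 9 barcodes each, a loss of 0.90 (exact permutation test over barcodes, adjusted p = 0.0123). The test reads barcode means, which differed by 1.18 (standard error 0.31) at this c position and by 0.59 (standard error 0.37) at the w position, where the medians differed by 0.17 and binding differed by more. The selection required the small median difference at the w position, and the c counterpart was picked for its call. The difference between the 2 settings was not itself tested.

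The motif of site 147 is shown because its c counterpart was the other one called.
Site 147: agtAGGTAGaAGGTCC
It lies at chr2:145659190-145659205 on the plus strand. At its c counterpart (chr15:6877471-6877486) activity was 0.19 native and -0.53 altered over 9 barcodes each, a loss of 0.72 (exact permutation test, adjusted p = 0.0308). Binding there differed by 0.29 (1562 over 832 reads native and 2210 over 1439 altered). At the w position, binding differed by 1.02 and activity by 0.21. The barcode means differed by 0.35 (standard error 0.33) at the w position and by 0.95 (standard error 0.23) at the c position. In site 147, then, the setting with the larger binding effect had the smaller activity difference. The selection required a minimum binding difference and a small activity difference at the w position, and the c counterpart was picked for its call. The contrast between the settings is therefore partly set by these choices. It was not tested, and nothing is read from it.

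A c counterpart with a native form higher by at least 0.5 in binding and by at least 0.75 in activity occurred at 4 of 33 selected sites and 2 of 60 comparison sites, against 3.47% of 404 c sites. The 4 were numbers 20, 356, 501 and 687. At number 501 the c form bound strongly, at 1.48 native (1048 over 260 reads) and -0.73 altered (433 over 500), with activity of 0.46 and -0.52 (exact permutation test over 9 and 9 barcodes, adjusted p = 0.205). At number 356 the c pair had the largest activity difference of the 59, with 1.54 native and 0.09 altered (exact permutation test, adjusted p = 0.0539). Its binding was low in both c forms, at -0.86 and -1.44. At number 687 the c difference was 1.503 in binding and 0.86 in activity (exact permutation test, adjusted p = 0.140). For the deep site 402, the c counterpart (chr15:7371176-7371191) had binding of 1.60 native and 0.05 altered and activity of 0.02 and -0.62 (exact permutation test, adjusted p = 0.0616). The activity differences at numbers 501, 356, 687 and 402 missed the adjusted threshold of 0.05, and their sizes are given without a call.

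Other selected sites had small or negative activity differences in both settings. The perfect DR1 of site 450 bound at its c position (chr7:72156394-72156409) with 0.64 native and -0.22 altered, and its activity there was -0.56 and -0.44. Site 110, not enriched at its w position, was bound at its c position at 0.74 native (555 over 231 reads) and -0.41 altered, with activity of -1.13 and -0.93. Site 513 had differences of 1.20 in binding and 0.27 in activity at its c position. At site 269 both differences were near 0 in the c setting, 0.08 in binding and -0.04 in activity. The lowest c activity differences were -0.78, -0.74 and -0.66, at numbers 264, 601 and 204.

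Some c elements, of w sites with identical motifs, are listed under more than 1 number at 1 position. They show how well a motif effect repeats within the pool. At 11 such positions, 24 pairs of repeats differed in their native minus altered activity by 0.10 to 1.28, with a median of 0.32. A position listed under several numbers gives several pairs, so the pairs are not independent and weigh the median unequally. Sites 601 and 743 share all 16 bases (743 lies at chr13:113255581-113255596), and their common c element at chr7:140507287-140507302 gave -0.74 under one number and 0.54 under the other, on 6 and 5 native and 5 and 4 altered barcodes. This pair had the largest gap, and its native form held only 2152 and 230 plasmid counts. For number 431 the c difference was 0.94, the third highest of the 59, while the same c element listed under number 177 gave 0.08. By the exact permutation test, whose mean over barcodes was 0.23, number 431 had p = 0.564 before adjustment. None of these pairs had ChIP counts for both forms under both numbers.

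Correlations across sites, which share their libraries and are given as descriptions, related the w and c settings. Over the selected sites, native w binding and native c binding had Spearman's rho of 0.44 (n = 37), against 0.38 in the comparison sites (n = 64) and 0.31 over all (n = 320). Within the c setting, the binding and the activity effect of the motif had a rho of 0.46 over the counterparts of selected sites (n = 33), 0.08 over those of comparison sites (n = 60) and 0.23 over all (n = 293). Native w activity and native c activity had a rho of 0.32 over the 59 sites, -0.04 over the comparison sites and 0.00 over all 541. No test of the differences between sets was made.

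Identical motifs at another w position gave a further view. Site 601 bound with a difference of 2.54 and site 743, with the same 16 bases, with 0.95 (8787 over 3713 reads native and 888 over 724 altered). By the selection, both had small activity differences of -0.39 and 0.01. The motif of site 500 also occurs as w site 252, at chr11:115956978-115956993, where binding differed by 0.91 and activity by 0.51. The motif of site 431 occurs as w site 177, where binding differed by 2.03 and activity by 0.74, just under the limit of the comparison sites. At site 431 itself the values were 1.75 and 0.06.

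On chromosome 11, the selected site 487 is the first of 5 w sites with 1 identical motif, at chr11:68546956-68546971, and the others start at 68547000, 68547088, 68547132 and 68547176. The activity difference was -0.28 at site 487, 0.57 at site 278, 0.49 at site 116, -0.25 at site 97 and -0.27 at site 111. The binding difference was 1.43, 0.20, 1.87, -0.40 and -0.65 in the same order. As point values, these differences had both signs in both measures. Some binding values rest on few reads, such as 83 over 162 at altered site 116 and 198 over 155 at native site 97. Differences between the positions were not tested. At sites 278, 116 and 97, permutation over barcodes gave adjusted p = 0.270, 0.272 and 0.505 for activity, so none of them was called.

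In all, 7 selected sites lay within 200 bases of another w site, a set chosen after the values were seen. The closest pair overlaps by 1 base and is shown for the contrast in activity.
Site 229: aaaGGGGGAaGGGGCA
Site 350: aggAGGTCAaAGGCAA
The selected site 229 lies at chr15:76094714-76094729 and the comparison site 350 at chr15:76094699-76094714, both on the plus strand. At site 229 binding was 1.61 native (843 over 191 reads) and 0.76 altered (253 over 103), a difference of 0.85. At site 350 it was 0.74 (1833 over 763) and -0.14 (436 over 333), a difference of 0.88. Median activity differed by 0.11 at site 229, with 0.00 native and -0.11 altered, and by 1.15 at site 350, with 0.71 and -0.45. Both sites were selected on these activity values, so no test of them is given. Site 229 has 5 mismatches to the DR1 consensus and site 350 has 2, with its first half-site intact. The barcode means of site 229 differed by more than its medians, by 0.96 with a standard error of 0.42 over 7 and 7 barcodes.

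Site 356 (chr5:30498865-30498880), with a w activity difference of 0.20, has 2 neighbours with large differences. Site 353, 127 bases away, had activity of 0.53 native and -0.87 altered (exact permutation test, adjusted p = 0.00908). Site 377, 67 bases away, had 2.31 and 0.01 (exact permutation test, adjusted p = 0.1001). Neither neighbour had binding in both forms. Site 343, which lies 169 bases from the selected site 418, had an activity difference of 1.09 (exact permutation test, adjusted p = 0.0507) and a binding difference of -0.17. At site 416, 78 bases from the selected site 565, the difference was 1.06 in binding and 0.28 in activity, just above the limit for selection. The activity difference was 0.53 at site 112, 90 bases from the selected site 51, and 0.05 at site 207, 131 bases from the selected site 164.

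The motifs of 4 selected sites recur in pool 3, a separate pool with other elements, libraries of 37267216 RNA and 56246463 plasmid counts, and no ChIP. The 16 bases of site 20 occur there as w site 129 (chr16:90197717-90197732). Its activity was 2.64 over 11 native and 0.19 over 13 altered barcodes, a loss of 2.45 (permutation test over barcodes, adjusted p = 0.0187). The native form was called higher at 18.2% of the 1445 pool 3 w sites tested. The perfect DR1 of site 450 occurs as w site 669 with 3 barcodes per form, at -2.42 native and -0.17 altered (exact permutation test, adjusted p = 1), and 3 against 3 barcodes cannot reach the threshold. The motifs of sites 164 and 168 occur as c sites, with differences of 0.34 and -0.31, and neither was called (adjusted p = 0.580 and 0.908 by permutation over barcodes, against 0.628% of c sites called).

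The motif of site 20 was thus measured in 3 settings. Its native minus altered activity was 0.17 at the selected w position on chromosome 4, 0.90 at the c position on the same chromosome and 2.45 at the pool 3 position on chromosome 16. The differences of barcode means were 0.59, 1.18 and 2.35, with standard errors of 0.37, 0.31 and 0.74. Levels are relative to their own pool, so the third value is not on a common scale of level with the others, though each is a difference within a pool.

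Of the selected sites, 1, site 216, was measured again in the other pools that share w sites with pool 1. Pools 2, 4 and 6, of 25, 25 and 15 sites, held no selected site and 14, 14 and 5 comparison sites. Pool 5, of 245 sites, held 1 selected and 89 comparison sites. In pool 5, which altered named motifs 1 at a time, the wt element of site 216 had 9203 RNA over 18284 plasmid counts, an activity of -0.84, and 25.7% of the 245 wt elements were lower. Altering its RXR motif gave a wt minus altered difference of -0.14 (95% counting interval -0.21 to -0.07). Across pool 5, the wt form exceeded a form with an altered PPAR or RXR motif by at least 0.75 in 55.3% of 396 elements, with a median of 0.87. At the comparison sites it did so in 74 of 136, with a median of 0.88. Control alterations reached 0.75 in 23.2% of 926 elements (median 0.20) and other motifs in 45.5% of 1407 (median 0.66).

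Other motifs of site 216 gave differences of both signs in pool 5. The wt minus altered difference was 0.63 (95% counting interval 0.55 to 0.71) for a FRA1 motif and 0.44 (0.36 to 0.51) for an AP-1 motif, which bind factors of the FOS and JUN families. It was 0.19 for a RAR motif, -0.04 for an ATF4 motif and -0.18 for a COUP-TF motif. The 7 control alterations, labelled ctrl, gave -1.05 to -0.08 with a median of -0.40, so each control form was more active than the wt form. The RXR, RAR and COUP-TF names carry the same number and may mark 1 place in the element, which was not tested. All these intervals cover counting error of 1 pair of libraries. In pool 1, site 216 had the highest activity of the selected sites in both forms, 0.72 native and 0.48 altered, and its binding was 1.22 native (1098 over 326 reads) and -0.99 altered (116 over 161). At its c position the difference was 0.78 in binding and 0.72 in activity (exact permutation test over 9 and 9 barcodes, adjusted p = 0.235).

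The motif letters were compared as a description, with no test. The median number of mismatches to the 13-base DR1 was 4 in the selected sites, 3 in the comparison sites and 4 over all 541. The means were 3.51, 3.54 and 3.83, so the selected and comparison sites were nearly equal by that measure. Over the 27 sites that met both stricter criteria, the median was 3. At the close end, the selected sites held 1 site at 0 mismatches and 3 sites at 1. None of the 113 comparison sites had fewer than 2, while all 541 held 1 site at 0 and 9 at 1. The second half-site was intact at 14 of 59, 18 of 113 and 76 of 541, and the first at 4, 9 and 28. An A stood first in the 16 bases at 54.2% of selected sites, 69.9% of comparison sites and 57.9% of all 541. The GC content had a median of 56.25% against 50% in the comparison sites and 50% over all. The selected sites fell on 18 chromosomes, and chromosome 17 held 8 of them, against 4 comparison sites and 27 of all 541.

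The number of mismatches went with occupancy. Over the selected sites, mismatches and native w binding had a rho of -0.43 (n = 59), against -0.15 in the comparison sites (n = 113) and -0.31 over all 541. With native c binding, which the selection did not use, it was -0.47 over the selected sites (n = 37), -0.17 over the comparison sites (n = 64) and -0.31 over all (n = 320). Closer matches to DR1 thus tended to have the higher occupancy in both settings of the selected motifs, as a description across sites that share their libraries. Native w binding is part of the difference that chose the sites, so only the c value lies outside the selection.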

How the data were processed

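Enhancer activity was measured in pools of barcoded elements and PPARγ binding by ChIP in pool 1, with 1 library of each kind. The deposited values of pools 1 and 3 are raw read counts per barcode, the deposited pool 5 counts are summed over barcodes, and the ChIP table holds raw read counts per element, per the file headers. The build was mm9, and BWA 0.7.12 and Bowtie2 2.1.0 were used, per the submitters' processing notes; the counting tool is not given in the sources used here. The pool 1 ChIP table, used as deposited, listed 1992 of the 3000 pool 1 elements, with no input count under 101.

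Activity was log2 of RNA over plasmid counts, each plus 1 and scaled to its library total, as an element's median barcode, leaving out barcodes under 20 plasmid counts (pool 5: elements under 50). Binding was log2 of ChIP over input counts in the same way. Intervals are 95% intervals of Poisson counting error, and cover that error only. Single sites were tested by a 2-sided permutation of native and altered barcodes, on the difference of barcode means. The test was exact up to 100000 arrangements and used 100000 resamples otherwise, with at least 3 barcodes per form and Benjamini-Hochberg adjustment over all sites of a class and pool (threshold 0.05). It was checked on simulated data. Printed effects are differences of medians unless called means. In pool 5, 101 of 3075 rows that name no site (3.00% of RNA and 4.90% of plasmid counts) were left out. Pool 5 libraries held 15258069 RNA and 16952662 plasmid counts. Pools 2, 4 and 6 held no selected site, pool 7 was not used, and the pool 2 ChIP table is not analysed here. Pool 2 and pool 4 tests that had been planned were therefore not made.

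The selected sites, lists and tests were chosen with earlier results of these data known. Sites named are the 10 with the largest binding difference, those at each threshold, those measured in other pools, those with a called or extreme c difference, those with 0, 1 or the most mismatches, and the 5 comparison sites with the largest binding difference. Other sites named (neighbours, shared motifs, pool 3 matches and extremes of a range) were chosen after their values were seen. Mismatches were counted against a DR1, the best of both strands and all offsets. Alternatives were other pseudocounts, count minimums, summed barcodes, barcode subsets and an input minimum. Python 3.11.15, numpy 2.4.6, pandas 2.3.3 and scipy 1.17.1 were used.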

Additional observations from a re-analysis of the deposited data

How the results depend on the processing

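The number of selected sites was 59 or 57 with pseudocounts of 0.5 and 5 and with no count minimum, 55 with 5 times the minimum and 66 from summed counts, of which 43 were among the 59. With at least 400 input reads in both forms, 17 selected and 51 comparison sites were left, because fewer sites qualify. Sites clear of the thresholds by their errors, an alternative chosen after seeing the data, numbered 27, and the number of their c counterparts called was 0 by the permutation test. In these 27 the median c difference was 0.11 in activity and 0.67 in binding (n = 14), with 8 of 14 at 0.5 or more. Over the alternatives run, the median c activity difference of selected sites ranged from 0.11 to 0.18 and that of comparison sites from 0.11 to 0.16, and the median c binding difference ranged from 0.58 to 0.75 and from 0.50 to 0.53. No paired analysis was possible because each kind of library was made once per pool, so there is no second replicate to pair. Pool 5 rests on 1 selected site.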
